A study of Mus musculus with 8 samples.

Results

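A set of 10 cytotoxic and natural killer (NK) receptor genes was followed through the lymphocytes of mouse inguinal white fat, namely Klrc1, Klrd1, Klrk1, Nkg7, Gzma, Gzmb, Prf1, Ifng, Ccl5 and Xcl1. These are 10 of the 32285 genes in the count tables. They were picked by symbol, with their differences between the feeding groups already known from these same libraries, so the comparison of the feeding groups for these 10 genes is given below as a description without p-values. All 10 symbols were found, each once, and all 10 are protein-coding in the GENCODE annotation of GRCm38.

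The stromal vascular fraction, the cells left after adipocytes are removed from digested fat, was profiled by single-cell RNA sequencing of the inguinal depot of C57BL/6 mice (C57BL/6J in the study's methods). The ad-lib group had 4 libraries (Ad-Lib 1, 3, 5 and 7) from mice with free access to food, and the twice-a-night (TAN) group had 4 libraries (TAN 2, 4, 6 and 8) from mice fed only at night, within a pair of short feeding windows in the dark period. The labels name no transgene or mutation in either group. The labels give an age of 8 weeks for both groups, whereas the study describes older males after months of feeding, so the age is not certain. The libraries are animal replicates by the study's methods, so p-values measure the spread between mice.

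NK cells and cytotoxic T cells kill by releasing granules, in which perforin opens the target membrane and granzymes enter to trigger death. Whether an NK cell fires depends on a balance of inhibitory and activating receptors that read class I-like molecules on other cells, and both lineages also secrete interferon gamma and chemokines. In fat, NK cells and Cd8+ T cells are best known for their part in the inflammation of obesity. Naive T cells, which circulate through lymph nodes and carry the homing receptor Ccr7, hold little of this machinery.

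The files held 44427 cell barcodes, of which 36370 were kept, with 25320800 to 37140950 UMIs (unique molecular identifiers, 1 per captured transcript) per library. Median UMIs per kept cell ranged from 3925.5 (TAN 6) to 6560.5 (Ad-Lib 1), and the median mitochondrial share was 1.79 to 2.54% in Ad-Lib and 2.80 to 4.24% in TAN libraries. Of the barcodes, 252 occurred in more than 1 library. Only 1 NK, 26 Cd8+, 17 Cd4+ and 1 Trdc+ cell carried one of these, and without them the genes called went from 384 to 374 in the Cd8+ gate and from 12 to 9 in the Cd4+ gate, while no gene named below changed its direction or its call.

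Cells were assigned to 4 gates from marker UMIs alone. The NK gate required Ncr1, the activating receptor NKp46, and no Cd3d, Cd3e or Cd3g. The Cd8+ T, Cd4+ T and Trdc+ (gamma delta T) gates required a Cd3 UMI with Cd8a or Cd8b1, with Cd4, or with Trdc. The NK gate held 222 cells, the Cd8+ gate 1977, the Cd4+ gate 907 and the Trdc+ gate 207. In sums of the NK gate, Eomes, the T-box factor of conventional NK cells, averaged 144 CPM (Ad-Lib) and 189 CPM (TAN, from 21.7 to 379 CPM). Of the T cell receptor chains, Trac averaged 6.32 and 1.80 CPM there, whereas Trbc1 averaged 388 and 354 CPM and Trbc2 241 and 265 CPM, so the T cell markers were not all near 0. Itga1, a tissue-residency gene, averaged 30.6 CPM in Ad-Lib (5.12 to 45.4) and 89.7 CPM in TAN sums (51.6 to 144). Rgs2, another such gene, averaged 433 and 305 CPM. The endothelial gene Kdr averaged 4.69 and 60.2 CPM, and the progenitor gene Dcn 926 and 407 CPM. Whether the make-up of the NK gate differed between the groups was not tested. Levels are CPM, the UMIs of a gene scaled to a common total of summed UMIs per gate and library. In such sums, fewer cells of a type and less RNA per cell cannot be told apart.

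NK cells made up 0.762% ± 0.064 of kept cells in the ad-lib group and 0.465% ± 0.033 in the TAN group (SD, n = 4 each). All 4 TAN shares lay below all 4 Ad-Lib shares (two-sided exact permutation p = 0.0286, the smallest that 70 assignments allow), but the value over the 4 gates did not pass (Benjamini-Hochberg adjusted p = 0.114). Cd8+ T cells made up 2.06% ± 2.20 against 7.79% ± 6.06 (n = 4 each; exact permutation adjusted p = 0.143). Ad-Lib 3 stood apart at 5.34%, against 0.699 to 1.34% in the other Ad-Lib libraries. Cd4+ T cells made up 1.14% ± 0.60 and 3.55% ± 1.85 (n = 4 each; exact permutation adjusted p = 0.114), and Trdc+ cells 0.336% ± 0.183 and 0.729% ± 0.499 (n = 4 each; adjusted p = 0.143). None of the 3 T cell gates passed the test. TAN 6 had the largest shares of Cd8+ and Trdc+ cells, 15.7% and 1.47%. Without TAN 6 the differences in mean share were 3.10 and 0.147 points, against 5.74 and 0.393 points with all libraries. As shares of cells with a Ptprc UMI, the pan-leukocyte gene, the exact permutation p was 0.0571 for NK and 0.0286 for Cd4+ cells, both with an adjusted p of 0.114.

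**Figure D1:**
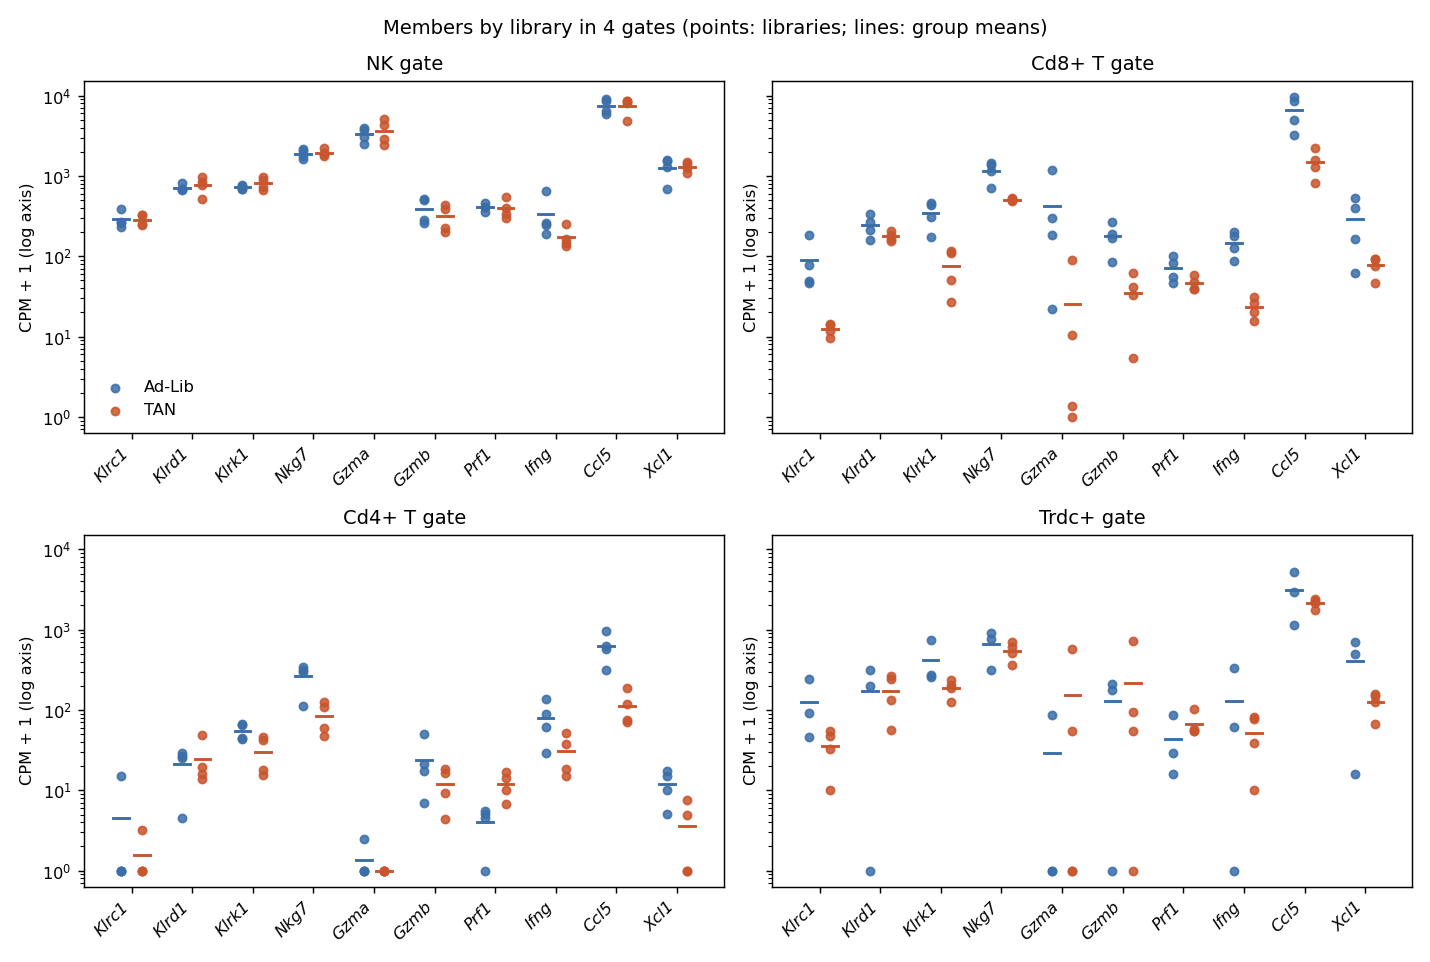
Level of each member (CPM + 1, log axis) in the summed cells of each gate; points are libraries with at least 10 cells in the gate, lines are group means. Ad-Lib and TAN points overlap for all 10 members in the NK gate, and in the Cd8+ T gate the TAN points of Klrc1, Klrk1, Nkg7, Gzmb, Ifng and Ccl5 all lie below the Ad-Lib points.

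To place the members, their levels in NK cells were compared with those in the T cell gates of the same libraries. This contrast did not serve to choose them here, although several were named for their place in NK cells. It draws on the same sums as the feeding comparison, with both groups together. Lower TAN levels of a member in a T cell gate widen its difference, so the p-values are not independent of the choice. Against the Cd8+ gate all 10 members were higher in the NK gate at an unadjusted p under 0.05 (two-sided exact paired permutation test over 8 libraries), where 650 of 2725 genes tested (23.9%) were. The exact p was 0.0078, the smallest that 8 libraries allow, for 9 members and 0.0469 for Ccl5. Adjusted over all genes the exact paired p was 0.0468 for the 9, among 292 genes higher in the NK gate (10.7%), and 0.135 for Ccl5. The median difference was 2.38 over the members and 0.14 over all genes on the log2(CPM + 1) scale. Gzma, a protease of cytotoxic granules, differed by 6.63 ± 3.61 (SD, n = 8) on that scale, and Prf1, perforin, by 2.84 ± 0.43. The differences of Nkg7, a granule membrane protein needed for exocytosis, and of Ccl5, a chemokine that draws T cells and monocytes, were 1.33 ± 0.71 and 1.34 ± 1.45. Ccl5 was higher in the NK gate in 6 of 8 libraries, among them all TAN libraries, and the Cd8+ gate was higher in Ad-Lib 1 and Ad-Lib 7.

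Against the Cd4+ gate all 10 members were higher in 8 of 8 libraries (exact paired p = 0.0078 each), where 553 of 3100 genes (17.8%) were higher at an unadjusted p under 0.05. Against the Trdc+ gate, with 7 libraries, 9 of 10 had an unadjusted p under 0.05, where 262 of 1793 genes (14.6%) did, and Gzmb did not (log2 difference 3.00 ± 3.91, higher in 6 of 7, exact paired p = 0.0781). Adjusted over all genes, the smallest exact paired p of a member was 0.0561 against the Cd4+ gate and 0.118 against the Trdc+ gate, and 0 genes (0%) passed in either. The median differences were 5.08 over the members and 0.023 over all genes against the Cd4+ gate, and 2.74 and 0.058 against the Trdc+ gate. When 1 library was left out, the members at an unadjusted p under 0.05 numbered 9 against the Cd8+ gate without Ad-Lib 3 or 5 or any TAN library (all but Ccl5) and 10 otherwise. They always numbered 10 against the Cd4+ gate, and against the Trdc+ gate 7 without Ad-Lib 1 or 3 or TAN 4, 6 or 8 and 8 without TAN 2. With 1 library left out, 0 members passed after adjustment over all genes in any of the 3 contrasts, since the smallest exact p was then 0.0156, or 0.0313 against the Trdc+ gate.

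Within the NK gate, no member separated the feeding groups. The receptors come first. Klrd1 (CD94) pairs with Klrc1 (NKG2A) in an inhibitory receptor for the nonclassical molecule Qa-1, and Klrk1 (NKG2D) is an activating receptor for stress ligands. In the order Ad-Lib 1, 3, 5 and 7, Klrc1 stood at 232, 268, 389 and 261 CPM, and in TAN 2, 4, 6 and 8 at 325, 243, 248 and 328 CPM. Klrd1 stood at 667, 817, 687 and 682 CPM in the Ad-Lib libraries and at 520, 761, 981 and 850 CPM in the TAN ones. Klrk1 stood at 683, 776, 758 and 689 CPM in the Ad-Lib libraries and at 671, 971, 878 and 727 CPM in the TAN ones. The ranges overlapped for all 3 receptors, and the fitted log2 changes (TAN over Ad-Lib, edgeR) were 0.03 ± 0.20 (SE), 0.13 ± 0.17 and 0.19 ± 0.16. Klrc1 is uncertain in any gate, since 25.9% of the 100-base windows in the last 500 bases of its transcripts also occur in its paralog Klrc2, whereas the other 9 members shared no such window with another gene.

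The granule genes of NK cells were as close. Nkg7 stood at 1613, 1765, 2147 and 2034 CPM in the Ad-Lib libraries and at 1783, 1910, 1890 and 2202 CPM in the TAN ones. Gzma stood at 2507, 3693, 3940 and 3080 CPM in the Ad-Lib libraries and at 2418, 5050, 2891 and 4322 CPM in the TAN ones. The TAN values of Gzma surround the Ad-Lib values. Gzmb, the granzyme that activates caspases, stood at 259, 281, 497 and 523 CPM in the Ad-Lib libraries and at 202, 227, 434 and 389 CPM in the TAN ones. Prf1 stood at 359, 413, 410 and 459 CPM in the Ad-Lib libraries and at 397, 332, 299 and 553 CPM in the TAN ones. The log2 changes were 0.07 ± 0.12 for Nkg7, 0.18 ± 0.20 for Gzma, -0.30 ± 0.26 for Gzmb and -0.03 ± 0.18 for Prf1 (SE).

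Among the secreted factors, Ifng, the cytokine interferon gamma, stood at 259, 191, 241 and 644 CPM in the Ad-Lib libraries and at 253, 162, 134 and 143 CPM in the TAN ones. Its log2 change of -0.83 ± 0.35 (SE) rested partly on Ad-Lib 7 and was -0.38 without that library. Ccl5 stood at 6522, 8515, 9038 and 5828 CPM in the Ad-Lib libraries and at 4764, 8660, 8457 and 8122 CPM in the TAN ones. Xcl1, the chemokine read by cross-presenting dendritic cells, stood at 1549, 1275, 687 and 1575 CPM in the Ad-Lib libraries and at 1263, 1473, 1095 and 1393 CPM in the TAN ones. Both overlapped widely, with log2 changes of 0.02 ± 0.18 and 0.07 ± 0.22 (SE). None of the 10 members lay wholly below Ad-Lib, against 25 of 2005 genes tested in this gate (1.25%), and 0 of 2005 genes (0%) were called at an edgeR adjusted p under 0.05 with a change of at least 1.5-fold. At an unadjusted p under 0.05 there were 105, and DESeq2 called 0.

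Co-occurrence in single NK cells was counted for 8 pairs of members. Of 150 NK cells with a Gzma UMI, 86.7% also had Prf1, and of 72 cells without Gzma, 45.8% did. For Gzmb these shares were 59.3% and 20.8%. Klrd1 was found in 92.2% of 204 cells with Klrk1 and in 33.3% of 18 cells without, but in 91.6% of 119 cells with Klrc1 and in 82.5% of 103 cells without. Klrk1 was found in 96.6% of the cells with Klrc1 and in 86.4% of those without. Xcl1 was found in 86.9% of 99 cells with Ifng and in 72.4% of 123 cells without, and in 80.5% of 210 cells with Ccl5 and in 50% of 12 cells without. Nkg7 was found in 97.1% of the cells with Ccl5 and in 41.7% of those without. The gap was thus wide for some pairs and narrow for others, and 3 of the wider ones rest on 12 or 18 cells without the first gene. Deeper cells show more of every gene, so these shares describe the cells and carry no test.

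In the Cd8+ T gate several members stood lower in TAN libraries, by their levels below. The gate held 382 Ad-Lib cells (26 to 261 per library) and 1595 TAN cells (88 to 888 per library). Here 6 of the 10 members had all TAN values below all Ad-Lib values, against 641 of 6820 genes tested (9.4%) that lay so. The members were chosen on this very contrast, so nothing is read from the count. The median of the members' log2 changes was -1.99, against 0.003 over all genes tested.

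Of the receptors, Klrc1 stood at 76.3, 48.1, 45.2 and 185 CPM in the Ad-Lib libraries and at 13.4, 12.9, 10.8 and 8.49 CPM in the TAN ones. Klrk1 stood at 305, 174, 463 and 428 CPM in the Ad-Lib libraries and at 117, 49.4, 25.8 and 109 CPM in the TAN ones. All TAN values were lower for both, with log2 changes of -2.44 ± 0.36 and -2.06 ± 0.41 (SE). Klrd1, the partner chain of Klrc1, overlapped. It stood at 157, 211, 266 and 336 CPM in the Ad-Lib libraries and at 184, 203, 153 and 162 CPM in the TAN ones, a log2 change of -0.24 ± 0.19.

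The granule genes were likewise mixed. Nkg7 stood at 1352, 715, 1146 and 1450 CPM in the Ad-Lib libraries and at 510, 508, 484 and 530 CPM in the TAN ones, a log2 change of -0.97 ± 0.16 (SE). Gzmb stood at 84.7, 167, 189 and 264 CPM in the Ad-Lib libraries and at 60.2, 31.6, 4.42 and 39.9 CPM in the TAN ones, a log2 change of -2.49 ± 0.54. Neither gene overlapped between the groups. Gzma overlapped, at 182, 296, 21.3 and 1186 CPM in the Ad-Lib libraries and at 0, 89.4, 0.354 and 9.34 CPM in the TAN ones. Its log2 change of -3.45 ± 1.09 became -7.33 without TAN 4, which held most of the TAN Gzma, and -2.49 without Ad-Lib 7. Prf1 stood at 80.5, 53.6, 45.2 and 98.9 CPM in the Ad-Lib libraries and at 46.8, 38.7, 38.2 and 56.9 CPM in the TAN ones, overlapping, with a log2 change of -0.36 ± 0.21.

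Ifng stood at 199, 87.5, 125 and 178 CPM in the Ad-Lib libraries and at 25.1, 19.4, 14.7 and 30.6 CPM in the TAN ones, a log2 change of -2.53 ± 0.26 (SE). Ccl5 stood at 8517, 3221, 4950 and 9603 CPM in the Ad-Lib libraries and at 2239, 1289, 814 and 1568 CPM in the TAN ones, a log2 change of -1.92 ± 0.33. The lowest Ad-Lib library thus held more than the highest TAN library for both genes. Xcl1 overlapped, at 165, 60.2, 532 and 395 CPM in the Ad-Lib libraries and at 75.2, 90.3, 45.6 and 92.5 CPM in the TAN ones. Its log2 change was -1.61 ± 0.48, and -0.89 without Ad-Lib 5. Without TAN 6, the largest library of the gate, the change of Gzmb was -1.88.

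The order was the same at equal depth. With every cell thinned to 1000 UMIs, Ccl5 was found in 74.0% ± 21.3 of Ad-Lib and 22.1% ± 4.4 of TAN cells of the Cd8+ gate, and Nkg7 in 60.7% ± 10.6 and 36.3% ± 1.2 (SD over 4 libraries; 1 Ad-Lib and 43 TAN cells were shallower and left out). Unthinned, the mean shares were 77.9% and 27.6% for Ccl5 and 90.8% and 82.1% for Nkg7. In B cells, which should lack both, the thinned shares were 0.0338% and 0.619% for Ccl5 and 0.101% and 0.0554% for Nkg7, at median depths of 3178 to 3861 UMIs against 4226.5 to 6511 UMIs in the Cd8+ gate. Among Cd8+ cells, 33.9% of 655 cells with Ccl5 also had Xcl1, against 1.59% of 1322 cells without.

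**Figure D2:**
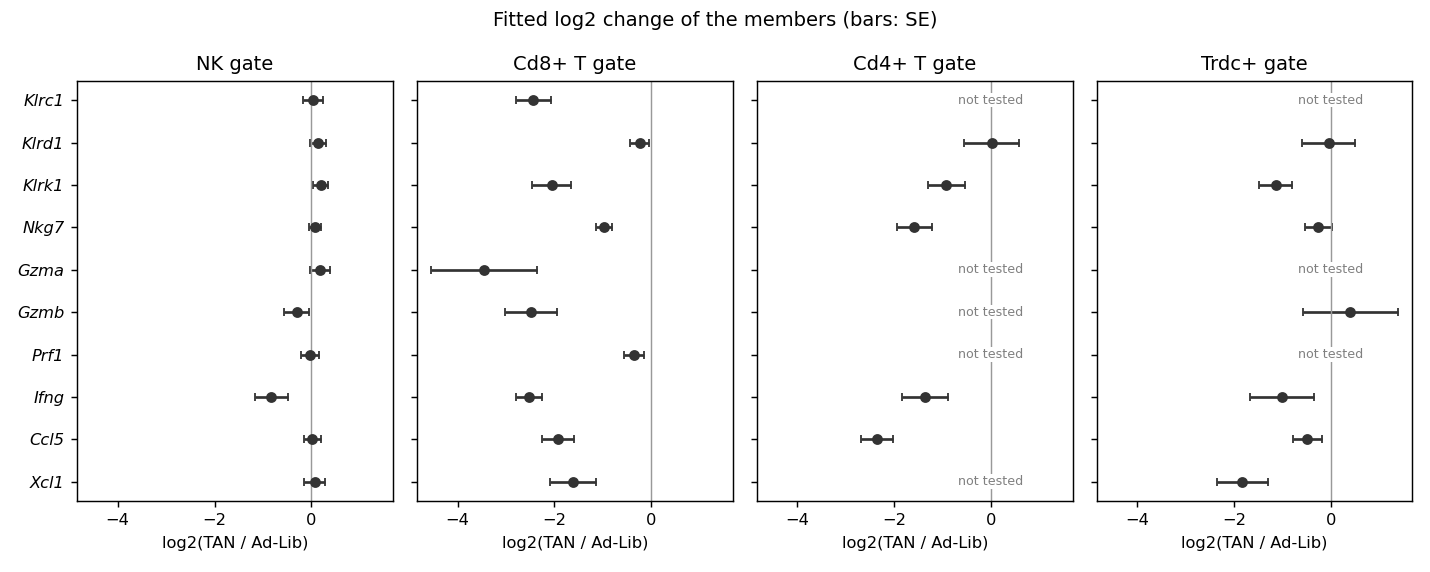
Fitted log2 change (TAN over Ad-Lib, edgeR) of each member in the 4 gates, with SE bars; members that did not pass the filter on low counts are marked as not tested. The NK gate lies around 0 except for Ifng at -0.83, and the Cd8+ gate reaches -3.45 for Gzma.

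In the Cd4+ T gate, 5 members passed the filter on low counts (Klrd1, Klrk1, Nkg7, Ifng and Ccl5). Ccl5 stood at 632, 314, 957 and 579 CPM in the Ad-Lib libraries and at 69.7, 116, 74.1 and 186 CPM in the TAN ones, a log2 change of -2.36 ± 0.33 (SE). It was the single one of the 5 with all TAN values lower, against 267 of 5655 genes (4.72%), a comparison from which nothing is read. Nkg7 stood at 342, 110, 295 and 316 CPM in the Ad-Lib libraries and at 107, 46.4, 57.9 and 126 CPM in the TAN ones, overlapping at TAN 8, with a log2 change of -1.59 ± 0.36. The log2 changes of Ifng, Klrk1 and Klrd1 were -1.36 ± 0.47, -0.92 ± 0.38 and 0.01 ± 0.56. Prf1 had 1, 3, 1 and 0 UMIs in Ad-Lib and 6, 12, 29 and 4 UMIs in TAN libraries, or 4.08, 4.50, 3.51 and 0 CPM against 13.1, 9.12, 16.1 and 5.77 CPM. All its TAN values were thus above all Ad-Lib values, opposite to Ccl5, from counts too low to pass the filter (1.86 ± 0.67 in the fit without the filter). Klrc1, Gzma, Gzmb and Xcl1 were also too low to test, and Gzma had 1 UMI in all Ad-Lib and 0 in all TAN cells. In the whole gate 12 of 5655 genes (0.212%) were called, a count that ranged from 0 (without Ad-Lib 7, TAN 4 or TAN 6) and 1 (without Ad-Lib 1) over 3 (without TAN 8) and 6 (without Ad-Lib 5) to 87 (without TAN 2) and 382 (without Ad-Lib 3). The B cell gene Ighm averaged 5111 CPM in the Ad-Lib sums of this gate (80.6 to 12741 CPM) and 193 CPM in the TAN sums, and its part in the levels above was not tested.

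In the Trdc+ gate Ad-Lib 7 had 8 cells and was left out, so 3 Ad-Lib libraries were compared with 4 TAN libraries over 7 members. Klrk1 stood at 270, 256 and 742 CPM in the Ad-Lib libraries and at 201, 233, 125 and 189 CPM in the TAN ones, a log2 change of -1.14 ± 0.33 (SE) that was -0.59 without Ad-Lib 5. It was the single member with all TAN values lower, against 107 of 2052 genes (5.21%), and 0 of 2052 genes (0%) were called, with 245 at an unadjusted p under 0.05. DESeq2 called 8, and edgeR called 1 without Ad-Lib 1 or TAN 6, 22 without TAN 2 and 66 without Ad-Lib 3. Xcl1 (-1.83 ± 0.53), Ifng (-1.01 ± 0.66), Ccl5 (-0.48 ± 0.31), Nkg7 (-0.26 ± 0.28), Klrd1 (-0.05 ± 0.54) and Gzmb (0.40 ± 0.99) overlapped between the groups. Ifng moved to 0.40 and Ccl5 to -0.01 without Ad-Lib 5, and Gzmb to -1.45 ± 0.65 without TAN 2, so that 1 library set the direction of Ifng and of Gzmb. Klrd1 stood at 0.40 without Ad-Lib 5 and at -0.46 without Ad-Lib 1, so its direction also hung on single libraries. Klrc1, Gzma and Prf1 did not pass the filter.

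Genes of the same machinery that are not members were read from the fit over the whole table. Of 60 such genes in 4 lists, 42 passed the filter in the Cd8+ gate and 17 were called, all lower in TAN, where 384 of 6820 genes (5.63%) were called in either direction, 136 higher and 248 lower. The 60 were listed with earlier results of these data known, so their count is a description and no independent support. The counts per list were 4 of 14 receptor and adaptor genes, 4 of 12 granule and death genes, 4 of 7 cytokine, chemokine and receptor genes, and 5 of 9 transcription regulators. The median log2 changes of these lists were -1.55, -0.53, -1.21 and -1.32, against 0.003 over all genes. None of the 42 was called higher. The macrophage gene Lyz2 averaged 677 CPM in the Ad-Lib sums of this gate (13.2 to 1369) and 144 CPM in the TAN sums (10.0 to 382). Its part in these calls was not tested. In strict gates, which drop cells with B cell, progenitor, endothelial or macrophage UMIs, Ctsc lost its call while Fcer1g and Zeb2 kept theirs. Over all genes the count depended on single libraries, with 181, 710 and 170 called without Ad-Lib 1, 3 or 5 and 229, 152 and 121 without TAN 2, 4 or 6, whereas 11 (without TAN 6) to 26 (without Ad-Lib 3) related genes were called.

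The 8 called with the smallest adjusted p span all 4 lists. Slamf7, an activating receptor of NK and effector T cells, fell by 1.91 ± 0.22 (log2, SE; adjusted p = 0.00099 by edgeR), from 94.9 to 19.0 CPM on average. Cxcr3, the receptor for interferon-induced chemokines, changed by -1.53 (adjusted p = 0.00556). Tbx21, the T-bet factor that drives Ifng, changed by -2.14 (adjusted p = 0.00781). Il2rb, the shared receptor chain for interleukins 2 and 15, changed by -1.21 (adjusted p = 0.00994). Serpinb9, which protects the killer from its own granzyme B, changed by -1.51 (adjusted p = 0.0109), Fasl, the death ligand, by -2.56 (adjusted p = 0.0112), and Bhlhe40, a regulator of T cell cytokines, by -2.17 (adjusted p = 0.0114). Prdm1, the Blimp-1 factor of effector cells, changed by -2.04 (adjusted p = 0.0124). For each of the 8, all TAN values lay below all Ad-Lib values. Over the 15 alternatives run, 7 of the 8 stayed called in all, and the call of Prdm1 was lost without Ad-Lib 5, TAN 4 or TAN 6 (largest adjusted p = 0.0645). Srgn, the proteoglycan that packs granules, passed the p threshold but not the fold (-0.56, adjusted p = 0.0189).

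In the other gates none of these genes was called (0 of 39 in NK, 0 of 29 in Cd4+ and 0 of 17 in Trdc+ cells). At an unadjusted p under 0.05 there were 0, 16 and 4, and DESeq2 called 0, 3 and 0. In the Cd4+ gate edgeR called 2 without TAN 2 and 8 without Ad-Lib 3. In the NK gate the smallest p belonged to Fasl, Ccl3 and Hcst, with log2 changes of 0.45, 0.62 and -0.27 (edgeR adjusted p = 0.90, 0.92 and 0.96). In the Cd4+ gate they belonged to Ctsc, the protease that activates granzymes (-1.19, adjusted p = 0.066), Cxcr3 (-1.49, adjusted p = 0.0834) and Srgn (-0.53, adjusted p = 0.095). In the Trdc+ gate Klra9 stood at -2.71 (adjusted p = 0.242) and Lamp1 at -1.04 (adjusted p = 0.318). Whether the change differed between the Cd8+ gate and the other gates was not tested.

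Markers of T cell state moved beside the members. The naive and residency genes were also listed with earlier results of these data known, so their p-values below are no independent support. Over 7 naive genes, the summed level in the Cd8+ gate was 1076, 1719, 1154 and 1219 CPM in the Ad-Lib libraries and 2232, 2101, 2107 and 2409 CPM in the TAN ones. All TAN sums were higher, and the mean log2 level differed by 0.80 (exact permutation p = 0.0286, adjusted p = 0.0286 over 2 gates). In the Cd4+ gate the sums were 970.04, 1579, 859 and 997 CPM in the Ad-Lib libraries and 1883, 1812, 2064 and 1761 CPM in the TAN ones, a log2 difference of 0.81 (exact permutation p = 0.0286, adjusted p = 0.0286). Without any 1 of TAN 2, 4, 6 or 8, the exact permutation p was 0.0571 in both gates, and without any 1 Ad-Lib library it was 0.0286. By edgeR in the Cd8+ gate, S1pr1 (1.23, adjusted p = 0.0207), Tcf7 (0.76, adjusted p = 0.0288), Ccr7 (1.19, adjusted p = 0.0361) and Lef1 (1.02, adjusted p = 0.0362) rose, and Dapl1 (1.69, adjusted p = 0.0529), Igfbp4 and Klf2 were not called. Over the 15 alternatives the calls of S1pr1, Tcf7, Ccr7 and Lef1 were lost in 1, 6, 7 and 7, whereas Dapl1 and Igfbp4 were called in 3 each. Of 6 tissue-residency genes, Itga1 (-1.99, adjusted p = 0.00415) and Cxcr6 (-0.83, adjusted p = 0.00742) fell and the other 4 were not called, although Rgs2 was in 5 of the alternatives and Rgs1 in 1. In the Cd4+ gate edgeR called 0 of the 7 naive and 0 of the 6 residency genes. At an unadjusted p under 0.05 there were 5 and 4 of them, and 953 of all 5655 genes. In the Trdc+ gate the naive sums were 556, 1001 and 620 CPM in Ad-Lib 1, 3 and 5, and 1172, 1742, 1200 and 1691 CPM in the TAN libraries, so all TAN sums were higher there as well. None of 6 naive genes tested was called by edgeR in that gate (median log2 change 1.24, 4 at an unadjusted p under 0.05), and the part of T cell state in the Trdc+ values of Klrk1 and Xcl1 above was not tested. B cells numbered 17, 657, 72 and 22 in Ad-Lib and 128, 548, 618 and 477 in TAN libraries. By the study's methods the lymph nodes were dissected away from the fat, and whether any node tissue remained was not tested.

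The Cd8+ cells were then divided by whether they held any UMI of Ccr7 or Lef1, a division made after the values above had been seen. Cells without such a UMI made up 77.3, 33.3, 56.9 and 57.7% of the gate in Ad-Lib and 18.2, 18.8, 20.05 and 17.4% in TAN libraries. Every Ad-Lib share was above every TAN share. Per 1000 kept cells of the library, there were 6.61, 17.8, 7.64 and 4.04 cells without such a UMI in Ad-Lib and 3.71, 17.3, 31.5 and 7.396 in TAN libraries, and these overlapped. Cells with such a UMI came to 1.94, 35.6, 5.79 and 2.96 per 1000 in Ad-Lib and 16.7, 74.5, 126 and 35.2 per 1000 in TAN libraries. In TAN 6 the 178 cells without such a UMI were shallow, with a median of 2402.5 UMIs against 3933.5 to 5910 in the other libraries, and a shallow cell can miss a UMI it would otherwise show.

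**Figure D3:**
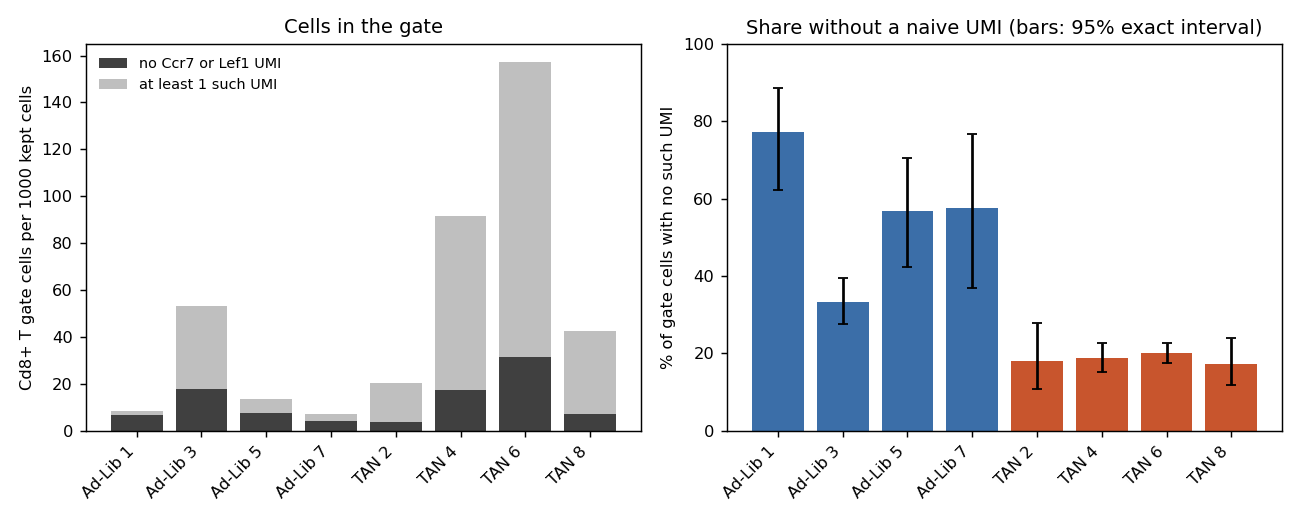
Left, Cd8+ T gate cells per 1000 kept cells in each library, stacked by cells without (dark) and with (light) a UMI of Ccr7 or Lef1. Right, the percentage of gate cells without such a UMI, with 95% exact (Clopper-Pearson) intervals that cover counting error only; Ad-Lib libraries lie at 33.3 to 77.3% and TAN libraries at 17.4 to 20.05%.

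Among cells without such a UMI, the groups overlapped for 8 of the 10 members, all but Klrc1 and Nkg7. Ccl5 stood at 10137, 7680.1, 5557 and 11538 CPM in the Ad-Lib libraries and at 9777, 4256, 2363 and 5590.3 CPM in the TAN ones, a log2 change of -0.51 ± 0.35 (SE) against -1.92 in the whole gate. Gzmb stood at 103, 557, 219 and 302 CPM in the Ad-Lib libraries and at 400.3, 158, 7.77 and 229.9 CPM in the TAN ones, a change of -0.77 ± 0.71. Ifng stood at 237, 255, 105 and 266 CPM in the Ad-Lib libraries and at 146, 102, 63.7 and 138 CPM in the TAN ones, a change of -0.94 ± 0.32. TAN 6 was the lowest library for these 3 genes.

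Nkg7 stood at 1484, 1355, 1245 and 1629 CPM in the Ad-Lib libraries and at 1104, 980.3, 586 and 1012 CPM in the TAN ones, a change of -0.50 ± 0.21 (SE). Klrc1 stood at 79.1, 136, 43.8 and 121 CPM in the Ad-Lib libraries and at 24.3, 33.2, 26.4 and 6.57 CPM in the TAN ones, from 1 to 17 UMIs per TAN library, and did not pass the filter on low counts. For both, all TAN values lay below all Ad-Lib values. Of the 9 members that passed the filter 1 lay so, against 124 of 2471 genes tested (5.02%). Klrk1 was at -0.61 ± 0.44, Prf1 at -0.62 ± 0.38, Xcl1 at -0.13 ± 0.46, Klrd1 at -0.23 ± 0.33 and Gzma at -3.00 ± 1.03. The median over the 9 members tested was -0.61, with all 9 below 0, and it was -0.23 over 10 without TAN 6, with 8 of the 10 below 0.

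In the same cells 1 of 2471 genes (0.0405%) was called by edgeR, with 371 at an unadjusted p under 0.05, and 0 of 28 related genes, with 8 at an unadjusted p under 0.05. The gene called, named here after its value was seen, was Dapl1, one of the 7 naive genes (log2 change 3.92, edgeR adjusted p = 0.00485). This naive marker thus differed between the groups in these cells, although it was not called in the whole gate. Without TAN 6, 3 of 2233 genes were called (Dapl1 at 3.98, Atf3 at -4.01 and Ecm1 at -3.30; adjusted p = 0.00799, 0.00799 and 0.0266) and 0 of 31 related genes, with 5 at an unadjusted p under 0.05. DESeq2 was not run on the divided cells. The fit rested on 15 to 178 cells per library. Of the 28 related genes tested both ways, 22 had a change closer to 0 than in the whole gate, against 1232 of all 2471 genes (49.9%) and 133 of the 154 genes called lower in the whole gate (86.4%), so nothing particular to the related genes is read from the count. Of the 28, 24 were below 0, with a median of -0.40, against 1247 of all 2471 genes (50.5%) and a median of -0.0038. Without TAN 6 they were 23 of 31, with a median of -0.24, against 50.6% of all genes. The related genes were listed with earlier results known, so these counts are a description. Of the 8 genes named above, Fasl stood at -1.37 ± 0.43 (SE), Tbx21 at -1.16 ± 0.44, Bhlhe40 at -1.10 ± 0.39, Slamf7 at -0.98 ± 0.30, Il2rb at -0.37 ± 0.27 and Cxcr3 at -0.28 ± 0.33, and the other two did not pass the filter.

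In cells with such a UMI, 35 of 6292 genes (0.556%) and 2 of 33 related genes were called, those 2 being Slamf7 and Serpinb6b, named here after their values were seen. Of the 9 members tested there, 5 had all TAN values below all Ad-Lib values (Klrc1, Nkg7, Gzmb, Ifng and Ccl5), against 229 of 6292 genes (3.64%), and nothing is read from the count. There 8 of the 9 had negative log2 changes, with a median of -2.03, and Prf1 stood at 0.07 ± 0.22 (SE). Ccl5 stood at 4792, 1521, 4013 and 7275 CPM in the Ad-Lib libraries and at 1034, 744, 615 and 971 CPM in the TAN ones, which did not overlap. A cell with 1 such UMI need not be a naive cell, and 10, 174, 22 and 11 Ad-Lib cells stood against 72, 367, 710 and 138 TAN cells.

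**Figure D4:**
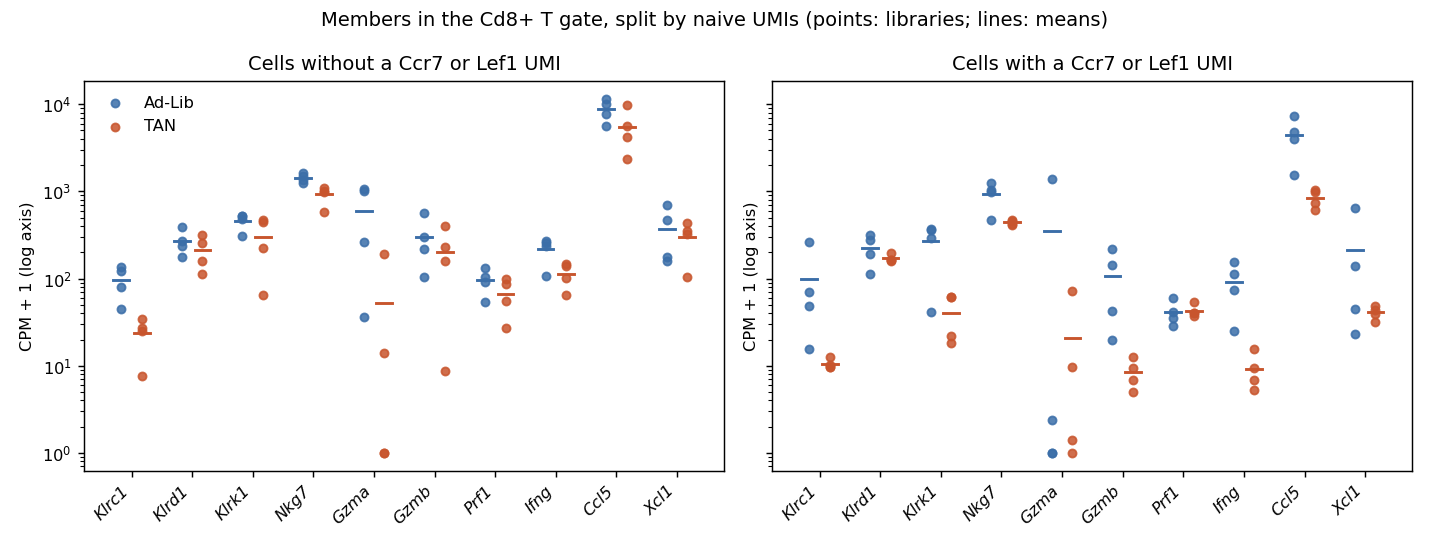
Level of each member (CPM + 1, log axis) in Cd8+ T gate cells without (left) and with (right) a UMI of Ccr7 or Lef1; points are libraries, lines are group means. On the left the groups overlap for all members but Klrc1 and Nkg7, and on the right Klrc1, Nkg7, Gzmb, Ifng and Ccl5 have all TAN points below the Ad-Lib points.

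**Figure D5:**
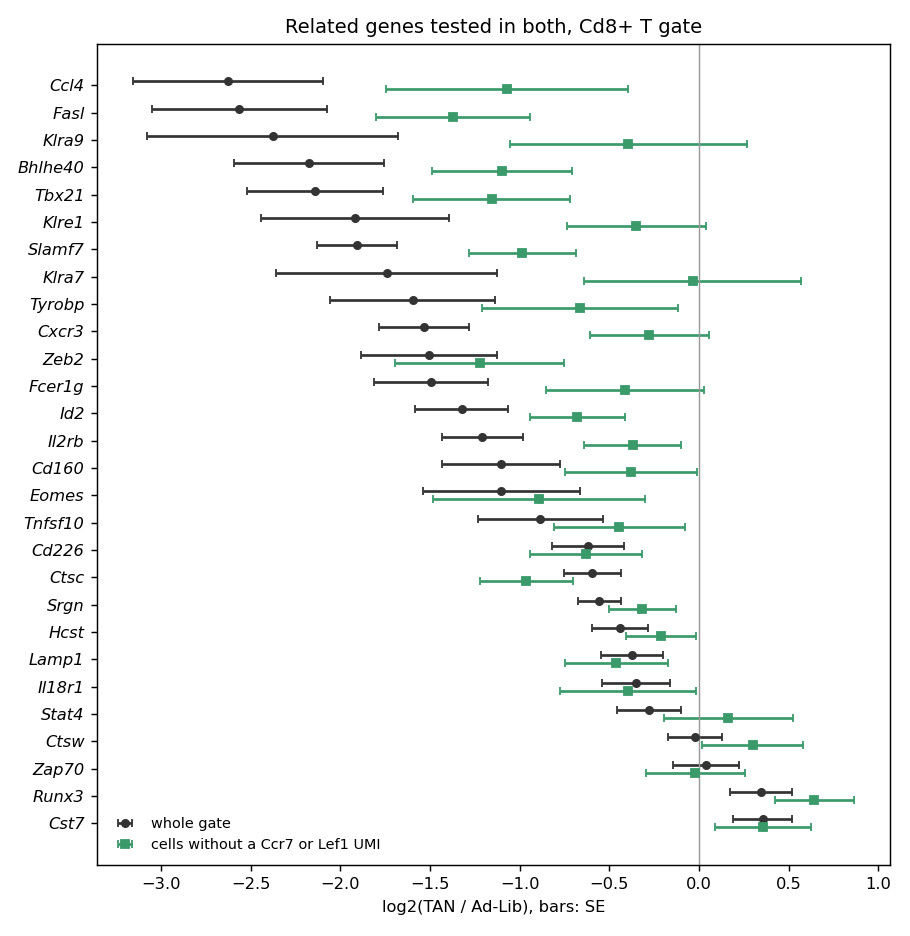
Fitted log2 change (TAN over Ad-Lib, edgeR, SE bars) of the 28 related genes tested both in the whole Cd8+ T gate (circles) and in its cells without a Ccr7 or Lef1 UMI (squares). The squares lie closer to 0 for 22 of the 28; of all genes called lower in the whole gate, not drawn here, 86.4% had a change closer to 0 in these cells.

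The members differed in where their transcripts came from. The 4 gates held 57.9 to 86.7% of the UMIs of the 9 members other than Ccl5 but 39.6% of the 94630 Ccl5 UMIs. Droplets with both Ccr7 and Fscn1, markers of migratory dendritic cells, held 41.0% of the Ccl5 UMIs, 23.3% in Ad-Lib and 51.4% in TAN libraries. They numbered 3, 39, 2 and 3 in Ad-Lib and 3, 41, 127 and 23 in TAN libraries, and 1 droplet held 2557 Ccl5 UMIs. Their Nkg7, Gzma, Gzmb and Prf1 UMIs came to 0 to 3 per library. For Gzma, 67.5% of 6449 UMIs lay in the NK gate, and for Nkg7, 54.4% of 14009 UMIs lay in the Cd8+ gate.

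Cells that could answer the members were read through 24 genes, among them ligands of the receptors and targets of interferon gamma. In adipocyte progenitors 0 of 16 tested genes were called (89 of 12100 genes of any kind, 0.736%), the smallest p belonging to H2-T23, which encodes Qa-1 (0.35, edgeR adjusted p = 0.231), with none called by DESeq2 either. In endothelial cells 1 of 17 was called (202 of 11366 genes, 1.78%). It was Cxcl9, an interferon-induced chemokine, which fell by 0.61 on the log2 scale (adjusted p = 0.0458), a call lost when any of 6 libraries was left out (Ad-Lib 1, 3 or 7, or TAN 2, 4 or 8). Clec2d, the ligand of Nkrp1 receptors, stood at 0.55 (adjusted p = 0.0017) and Irf1, an interferon-induced factor, at -0.35 (adjusted p = 0.0382), both under 1.5-fold. In macrophages 0 of 19 were called (20 of 10053 genes, 0.199%), with Gbp2 at -1.17 (adjusted p = 0.0692), Clec2d at 0.34 (adjusted p = 0.103) and Cxcl9 at -3.27 (adjusted p = 0.111).

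Ccl5 itself had a log2 change of 4.04 (TAN against Ad-Lib) in endothelial cells, although the groups overlapped. The UMIs were 1, 10, 11 and 9 in Ad-Lib and 6, 267, 70 and 123 in TAN libraries. A single droplet held 236 of the 267 in TAN 4 and another 112 of the 123 in TAN 8. With the top droplet's Ccl5 count removed in every library, the counts were 0, 9, 9 and 8 against 5, 31, 62 and 11, and the gene no longer passed the filter.

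Across 31 points of library and gate with at least 10 cells, the genes whose levels ran most like the members' summed CPM were Serpinb9 (Spearman rho 0.937), Klrb1c (0.933), Samd3 (0.929), Klre1 (0.928) and Klrc2 (0.928). These points share libraries and gates, so the values are a description.

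The members lie on 7 chromosomes. On GRCm38, Klrd1 (chr6:129591782-129598775), Klrk1 (chr6:129610323-129623864) and Klrc1 (chr6:129666015-129678973) lie in the NK gene complex, and Prf1 (chr10:61297833-61304680) and Ifng (chr10:118441046-118445892) share chromosome 10. Nkg7 lies at chr7:43437073-43438249, Gzma at chr13:113093825-113100981, Gzmb at chr14:56258838-56262260, Ccl5 at chr11:83525778-83530518 and Xcl1 at chr1:164931644-164935527. The values cover whole genes counted from 3' ends.

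Promoters are shown for 5 of the 6 members whose groups did not overlap in the Cd8+ gate, a separation that the choice of members had used, so that their letters can be compared. Each run is the 250 bases before the start of the gene in RefSeq (GRCm38.p6), 5′ to 3′ on the gene's strand, with matches to the Runx letters TGTGGT or ACCACA and the T-box letters GGTGTG or CACACC in capitals. They are Klrc1 (chr6:129678974-129679223, minus strand), Klrk1 (chr6:129623865-129624114, minus strand), Nkg7 (chr7:43436888-43437137, plus), Gzmb (chr14:56262335-56262584, minus) and Ifng (chr10:118440796-118441045, plus), the last with no match.
Klrc1: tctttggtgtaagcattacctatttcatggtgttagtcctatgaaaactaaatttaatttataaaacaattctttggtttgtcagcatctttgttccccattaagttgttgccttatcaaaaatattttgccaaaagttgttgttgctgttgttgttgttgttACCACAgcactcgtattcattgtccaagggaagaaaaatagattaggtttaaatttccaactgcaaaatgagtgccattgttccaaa
Klrk1: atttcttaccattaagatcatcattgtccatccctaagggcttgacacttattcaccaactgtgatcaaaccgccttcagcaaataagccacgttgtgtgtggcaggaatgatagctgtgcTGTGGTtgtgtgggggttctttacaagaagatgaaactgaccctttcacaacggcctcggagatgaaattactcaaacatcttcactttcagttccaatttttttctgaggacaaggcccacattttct
Nkg7: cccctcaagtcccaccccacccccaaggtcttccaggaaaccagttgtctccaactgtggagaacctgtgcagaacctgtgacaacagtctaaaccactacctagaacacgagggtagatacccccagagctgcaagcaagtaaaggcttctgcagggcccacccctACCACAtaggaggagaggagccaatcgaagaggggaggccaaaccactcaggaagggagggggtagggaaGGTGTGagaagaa
Gzmb: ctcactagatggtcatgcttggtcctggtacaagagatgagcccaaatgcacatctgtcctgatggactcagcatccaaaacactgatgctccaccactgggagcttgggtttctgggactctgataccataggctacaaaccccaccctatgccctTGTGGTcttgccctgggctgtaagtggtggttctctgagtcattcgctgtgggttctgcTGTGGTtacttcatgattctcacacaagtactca
Ifng: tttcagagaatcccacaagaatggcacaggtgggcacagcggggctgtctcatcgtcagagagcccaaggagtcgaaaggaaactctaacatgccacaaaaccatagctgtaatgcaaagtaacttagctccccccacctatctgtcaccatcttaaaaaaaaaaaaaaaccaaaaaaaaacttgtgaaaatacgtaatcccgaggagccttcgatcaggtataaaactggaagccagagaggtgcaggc

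A promoter was found for 8 of the 10 members, all but Klrd1 and Ccl5. The Runx letters, read on both strands, occurred in 7 of the 8 and in 14.1% of 32851 promoters of the same length, and the T-box letters in 2 of the 8 and in 16.3%. The NFAT letters TGGAAA or TTTCCA occurred in 2 of the 8 (18.6%) and the AP1 letters TGANTCA in 1 of the 8 (6.75%). A match is a description of the letters in this window, and nothing is drawn about binding.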

How the data were processed

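Raw UMI counts per gene and droplet were deposited by the authors, 1 table per library, made from 10x 3' v3 reads on GRCm38 (mm10) with Cell Ranger; the submitters' notes name version 3.0.2 and the file headers 6.0.1. The notes also name Seurat. Groups follow the labels. Droplets with 700 to 30000 UMIs, 200 to 8000 genes and at most 10% mitochondrial UMIs were kept; doublets were not removed. Gates excluded cells with markers of another gate (Cd4 or Trdc in the Cd8+ gate, Cd8a, Cd8b1 or Trdc in the Cd4+ gate). Counts were summed per library and gate (at least 10 cells) and fitted with edgeR 4.0.16 (quasi-likelihood, TMM, filterByExpr), adjusted over all genes by Benjamini-Hochberg. A gene was called at an adjusted p under 0.05 and at least 1.5-fold. DESeq2 1.42.0 was an alternative. Gate shares and naive levels were compared by exact permutation, and NK against T gates by exact paired sign flips (smallest p 0.0078, or 0.0156 with 7 libraries), two-sided, on log2(CPM + 1). NK against T gates was run on all genes that passed filterByExpr over both gates and adjusted over these genes; the adjustment planned over the members alone is not reported. The fit was tested on simulated data.

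The members and gene lists were chosen with earlier results of these data known. Named were all 10 members, up to 8 called related genes per gate (the 3 smallest p where none was called), up to 5 ligand-side genes, the 5 genes most like the members, and naive and resident markers where levels are given. The division of T cells by Ccr7 or Lef1, the fit without TAN 6, the removal of the top Ccl5 droplet, and the use of B cells and Ighm were chosen after values were seen. Some list genes are not reported here. Of 32285 gene identifiers, 32158 matched GENCODE M21.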

Additional observations from a re-analysis of the deposited data

Results flagged for a closer look

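Of 81 groups of 4 libraries checked, 13 held a library far from the other 3. Chance flags about 1 in 20 groups, and many of these values rest on few UMIs. No explanation was tested.

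In the NK gate, Ad-Lib 3 was high for Klrd1 (817 CPM against 667 to 687), Ad-Lib 7 was high for Ifng (644 CPM against 191 to 259), and TAN 2 was low for Ccl5 (4764 CPM against 8122 to 8660). In the Cd8+ gate TAN 4 was high for Gzma (89.4 CPM against 0 to 9.34), and the share of Cd8+ cells was high in Ad-Lib 3 (5.34% against 0.699 to 1.34%).

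In the Cd4+ gate Ad-Lib 5 was high for Klrc1 (14.0 CPM against 0) and low for Klrd1 (3.51 CPM against 24.3 to 28.5), while TAN 2 was high for Klrc1 (2.18 CPM against 0) and for Klrd1 (47.9 CPM against 12.9 to 18.8). Ad-Lib 3 was high there for Gzma (1.501 CPM against 0, 1 UMI). In the Trdc+ gate TAN 4 was high for Gzma (566 CPM against 0 to 53.4), and TAN 2 was high for Gzmb (723 CPM against 0 to 94.3) and for Prf1 (101 CPM against 53.4 to 56.6).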

How the results depend on the processing

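No paired analysis of TAN against Ad-Lib was possible because no replicate number occurs in both groups. The alternatives were RLE scaling, DESeq2, no filter on low counts, strict gates, a mitochondrial limit of 20%, 5 cells per library, no shared barcodes, a Ptprc denominator for shares, a pseudocount of 10, and leaving out each library. Of 115 planned values that keep all libraries, 102 kept their call and 13 moved by over 1.5 times, 8 of them without the filter, a setting that tests more genes. Of 160 values that leave out 1 library, 121 kept their call, 31 moved and 8 lost it.

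Without the filter the genes called were 114 in NK, 848 in Cd8+, 470 in Cd4+ and 94 in Trdc+ cells, and the related genes called 30, 8 and 2 in Cd8+, Cd4+ and Trdc+ cells, with 2 ligand-side genes in macrophages. DESeq2 called 164 genes and 3 related genes in Cd4+ and 8 genes in Trdc+ cells. Strict gates left 2 genes called in Cd4+ and 1 in Trdc+ cells. Cells without a Ccr7 or Lef1 UMI gave 1 gene in the Cd8+ gate (3 without TAN 6), 0 related genes there with or without TAN 6, and 0 genes in the Cd4+ gate (281 at an unadjusted p under 0.05). Cells with such a UMI gave 35 genes and 2 related genes in the Cd8+ gate and 0 genes in the Cd4+ gate (398 at an unadjusted p under 0.05). The cause was not tested.

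With 1 library left out, the genes called ranged from 0 to 1 in NK, from 121 (without TAN 6) to 710 (without Ad-Lib 3) in Cd8+, from 0 to 382 (without Ad-Lib 3) in Cd4+ and from 0 to 66 (without Ad-Lib 3) in Trdc+ cells. Related genes ranged from 11 to 26 in Cd8+ (11 without TAN 6, 26 without Ad-Lib 3) and from 0 to 8 in Cd4+ cells, and were 0 in NK and Trdc+ cells. Ligand-side genes ranged from 0 to 1 in endothelial cells and from 0 to 2 in macrophages. The naive level ranged from 0.718 to 0.943 (Cd8+) and from 0.704 to 0.997 (Cd4+), with an exact permutation p of 0.0571 without any TAN library and of 0.0286 without any Ad-Lib library. Differences in share ranged from -0.328 to -0.280 points (NK), from 3.10 to 7.66 (Cd8+), from 1.72 to 3.13 (Cd4+) and from 0.147 to 0.513 (Trdc+).

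In Cd8+ cells without a Ccr7 or Lef1 UMI, Rgs1 (0.017) changed sign on the log2 scale, as did Igfbp4 (-1.47), Klf2 (-0.19) and Rgs1 (0.33) in such Cd4+ cells, Itgae (-0.29) and Rgs1 (0.014) in Cd4+ cells with such a UMI, and Rgs1 in the Cd4+ gate without TAN 2 (0.073; from -0.50 without TAN 8 to 0.073 with 1 library left out). The members' fitted changes had the main sign in all 150 alternatives of the Cd8+ gate and another in 17 of 150 in NK, 2 of 74 in Cd4+ and 10 of 101 in Trdc+ cells, the divided cells not counted. In those, Klrk1 turned to 0.20 in Cd4+ cells without a Ccr7 or Lef1 UMI (-0.92 in the gate) and Prf1 to 0.07 in Cd8+ cells with one (-0.36). Some of the alternatives counted repeat the main fit and could not change a sign. They are 5 cells per library in all but Trdc+ cells, the mitochondrial limit of 20% in NK, and leaving out Ad-Lib 7 in Trdc+ cells. The NK gate (19 to 42 cells per library) and the Trdc+ gate (8 to 83) limit what can be seen. Only the setting without the filter moved the median of all genes by over 0.1 (log2), by -0.14 in NK and 0.19 in Trdc+ cells.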
